A study of Mus musculus with 4 samples.

Results

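The ligands of the tumor necrosis factor (TNF) superfamily were examined as a gene family across sorted lymphoid cells of the mouse. The family was taken as 9 genes chosen by name: *Tnf*, *Lta*, *Ltb*, *Fasl*, *Cd40lg*, *Tnfsf8*, *Tnfsf10*, *Tnfsf11* and *Tnfsf14*. Of the 3488 genes in the pair of marker tables analysed here, 8 belonged to this family. The table of cell types held 6 of them and the table of ILC2 subclusters 3, with *Tnfsf11* in both. *Tnfsf14* was in neither. These ligands are mostly made as trimers on the cell surface, from which some are cut loose, and they act on neighboring cells through receptors of the TNF receptor superfamily. The receptors use adapter proteins of the TRAF group or death domains to drive NF-κB signaling, survival or cell death. In lymphoid tissue the family is known for inflammation (TNF), lymphoid organ formation (lymphotoxins and RANKL), killing of target cells (Fas ligand and TRAIL) and help to B cells (CD40 ligand).

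Group 2 innate lymphoid cells (ILC2s), lymphocytes that lack antigen receptors and release type 2 cytokines, were sorted from liver and lung of wild type, male, 8-week-old BALB/c mice. Mice were injected i.p. on each of 5 days with recombinant IL-33 (0.5 µg a day) or with PBS as the control, and the 4 groups (IL-33 liver, IL-33 lung, PBS liver, PBS lung) held 1 single-cell library each, made from pooled tissue of several mice. The sort kept cells without lineage markers (CD3e and TCRb among them) that carried CD127, Thy1 and ST2, the IL-33 receptor encoded by *Il1rl1*. Both marker tables pool the 4 libraries, so no value here belongs to an organ or a treatment, no replicate stands behind any value, and the tables hold neither depth nor numbers of cells.

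The cell type table listed 1679 genes over 21 named cell types, and the ILC2 subcluster table listed 2629 genes over 10 subclusters of ILC2s, numbered from 0. A gene is called listed for a cluster when the table has a row for it there. In all 4422 rows of the cell type table and all 3745 of the subcluster table, the deposited average was higher in the cluster than in the other cells. Each row gives, as a share of cells, how many had a value above 0 in that cluster and how many had one elsewhere. A gene without a row was lower, alike, too rare or not tested there, and these cases cannot be told apart. The shares of the clusters, solved from these values, made ILC2 43.2% of the sorted cells, ILC2_2 1.78%, gdT_TypeI 11.7%, gdT_Naive 6.08%, ILC1 4.84% and NK 3.66%, and made subclusters 0 and 3 27.3% and 14.9% of the ILC2s. Names of cell types are those of the deposited table and were checked against fixed markers. NK listed 6 of 6 markers of NK cells and ILC1s, and ILC2 listed 6 of 6 ILC2 markers. The type named ILC3 listed 4 of 7 T cell markers (*Cd3d*, *Cd3e*, *Cd3g*, *Trac*). The type named gdT_TypeII listed only 28 genes, the fewest of the 21 types. Among them were no gamma delta T cell marker and 3 of 6 ILC2 markers (*Areg*, *Gata3*, *Il1rl1*). ILC2_2 listed markers of several types: 2 of 6 of ILC2s (*Areg*, *Il1rl1*), 2 of 4 of regulatory T cells (*Ctla4*, *Ikzf2*), and *Cd4*, *Tbx21*, *Trdv4*, *Igkc* and *Pecam1* from the lists for other cells. MMP_LMPP listed *Cd34* and *Kit* of the progenitor markers and *Cd79a* and *Mzb1* of the B lineage markers.

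*Ltb*, *Tnf* and *Lta* lie next to each other on mouse chromosome 17 (GRCm38, GENCODE M21). *Ltb* spans 35194439 to 35196320 on the plus strand, *Tnf* spans 35199381 to 35202007 on the minus strand, and *Lta* spans 35203165 to 35205351 on the minus strand. The gap between *Ltb* and *Tnf* is 3060 bases and that between *Tnf* and *Lta* is 1157 bases. *Tnfsf14* lies farther along the same chromosome (57189492 to 57194177, minus strand). The other genes are *Fasl* on chromosome 1 (161780689 to 161788495, minus strand), *Tnfsf10* on chromosome 3 (27317028 to 27342427, plus strand), *Tnfsf8* on chromosome 4 (63831308 to 63861347, minus strand), *Tnfsf11* on chromosome 14 (78277445 to 78308043, minus strand) and *Cd40lg* on chromosome X (57212143 to 57224042, plus strand). All 9 are annotated as protein-coding, with 3 to 5 exons in the principal transcript.

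The 250 bases before the start of *Tnf*, *Lta* and *Tnfsf11* are shown because *Tnf* and *Lta* are neighbors that were listed together, and because *Tnfsf11* had the widest gaps between shares in both tables. The sequences are those of RefSeq (GRCm38.p6), 5′ to 3′ on the strand of the gene, at chr17:35202008-35202257 for *Tnf*, chr17:35205352-35205601 for *Lta* and chr14:78308044-78308293 for *Tnfsf11*, all on the minus strand. Capitals mark matches on either strand to a loose form of the NF-κB site (GGG, then any 5 bases, then CC) or to TATAAA.
Tnf: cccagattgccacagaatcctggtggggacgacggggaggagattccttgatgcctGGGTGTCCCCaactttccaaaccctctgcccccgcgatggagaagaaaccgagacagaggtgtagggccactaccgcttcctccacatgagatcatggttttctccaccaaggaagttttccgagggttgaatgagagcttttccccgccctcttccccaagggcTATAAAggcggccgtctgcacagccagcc
Lta: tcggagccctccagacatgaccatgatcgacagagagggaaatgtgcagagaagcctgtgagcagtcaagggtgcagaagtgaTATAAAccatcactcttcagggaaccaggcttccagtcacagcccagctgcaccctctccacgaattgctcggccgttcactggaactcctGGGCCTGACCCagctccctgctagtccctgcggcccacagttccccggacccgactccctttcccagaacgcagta
Tnfsf11: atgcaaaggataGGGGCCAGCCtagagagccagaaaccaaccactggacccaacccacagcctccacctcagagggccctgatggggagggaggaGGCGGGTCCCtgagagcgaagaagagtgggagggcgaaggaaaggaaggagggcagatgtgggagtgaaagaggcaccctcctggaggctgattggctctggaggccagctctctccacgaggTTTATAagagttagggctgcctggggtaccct

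The NF-κB pattern had 1 match in the *Tnf* window, 2 overlapping matches in that of *Lta* and 2 in that of *Tnfsf11*, and 45.8% of 32851 mouse windows of the same length held at least 1. TATAAA had 1 match in each of the 3 windows, 29 bases before the start in *Tnf*, 32 in *Tnfsf11* and 167 in *Lta*, and 12.4% of all windows held it. TGANTCA, the AP-1 site, and GATAA, a core that GATA factors bind, had no match in any of the 3 windows, and 6.75% and 22.6% of all windows held them. A match says only that these letters are there.

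All 6 ligands of the cell type table were listed for at least 2 cell types, as were 62.2% of all genes of that table. They had 23 listings in 16 cell types. Basophil, Endothelium cell, Macrophage, Plasma cell and the type spelled Prolifelation cell listed none of them, and listed 16.4%, 23.6%, 17.3%, 12.2% and 30.6% of all genes of the table. The share of cells was higher inside in 17 of the 23 listings, against 83.6% of all listings of the table, and higher by at least 10 percentage points in 11, against 65.5% of all. The differences ran from -32.4 to 39.8 percentage points, with a median of 5.0 against 18.4 over all listings.

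**Figure D1:**
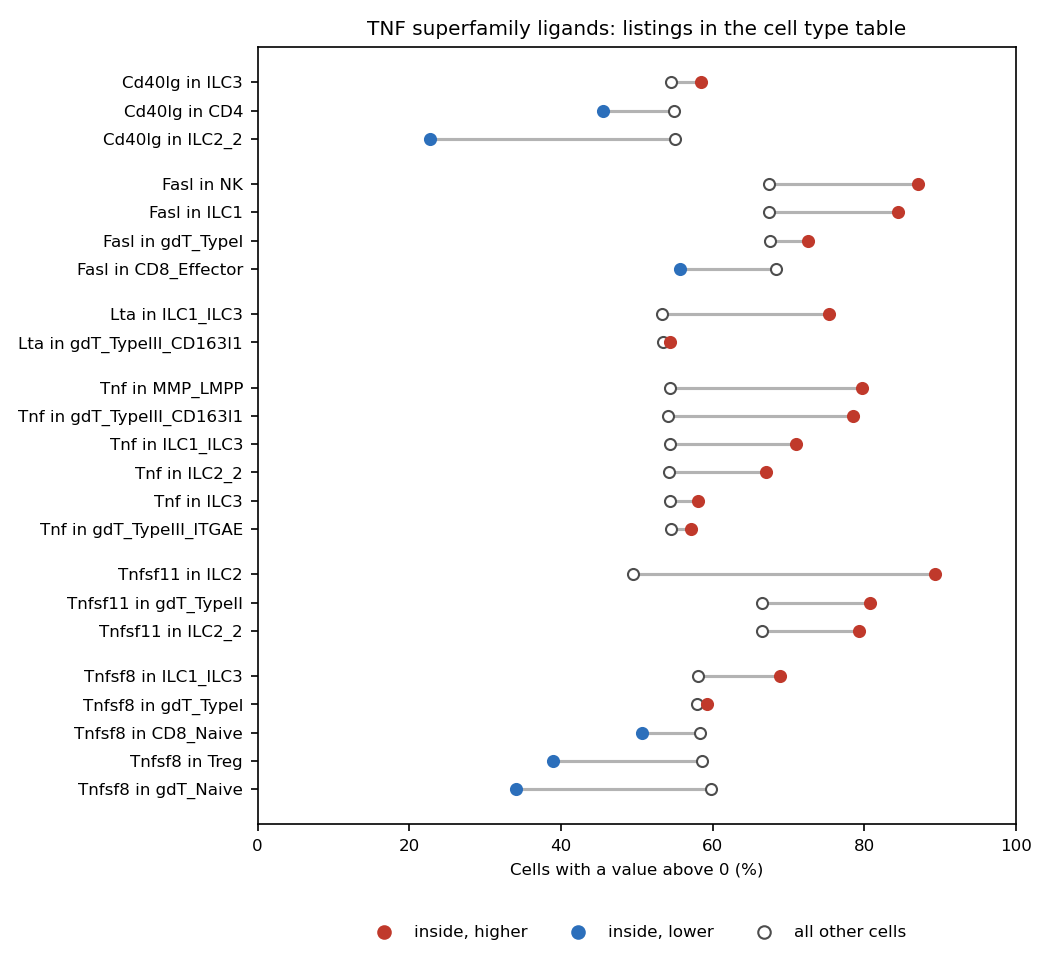
Percentage of cells above 0 (x axis) for each of the 23 listings of 6 TNF superfamily ligands in the cell type table; filled points give the share inside the cell type (red where higher, blue where lower) and open points the share in all other cells. *Tnfsf11* in ILC2 has the widest gap, 89.3% against 49.5%, and the blue points are 6 listings with a lower share inside.

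*Tnf*, the founding inflammatory cytokine of the family, was listed for the most cell types, 6 in all. It was above 0 in 79.7% of MMP_LMPP cells against 54.4% of the other cells, and in 78.5% of gdT_TypeIII_CD163l1 cells against 54.1%. The share was 71.0% in ILC1_ILC3 against 54.4%, and 67.1% in ILC2_2 against 54.3%. By difference *Tnf* ranked 261st of the 403 genes listed for MMP_LMPP and 140th of the 225 for ILC1_ILC3. Its differences there, 25.3 and 16.6 percentage points, were below the medians of all genes listed for these types, 29.8 and 20.3. These 2 types held 0.387% and 0.592% of the sorted cells. *Tnf* ranked 38th of 191 in gdT_TypeIII_CD163l1 and 57th of 200 in ILC2_2. ILC3 and gdT_TypeIII_ITGAE also listed *Tnf*, with 58.1% against 54.4% and 57.1% against 54.5%. The 6 types therefore fell into 4 with a share at least 12.8 percentage points above that of the other cells and 2 within 3.7 percentage points of it. The 6 types held 7.12% of the sorted cells, and in the 15 types that did not list *Tnf* the pooled share was 53.6%.

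*Lta* encodes lymphotoxin alpha, which binds TNF receptors as a homotrimer and the lymphotoxin beta receptor together with the product of *Ltb*. It was listed for 2 cell types, ILC1_ILC3, with 75.4% of cells against 53.3%, and gdT_TypeIII_CD163l1, with 54.4% against 53.4%. Both also listed its neighbor *Tnf*, so the 2 listings of *Lta* were shared in full and made up 2 of the 6 listings of *Tnf*. The order of the types differed between the neighbors: the share above 0 was larger in gdT_TypeIII_CD163l1 than in ILC1_ILC3 for *Tnf* (78.5% and 71.0%) and smaller for *Lta* (54.4% and 75.4%). ILC1_ILC3 listed 3 ligands, *Lta*, *Tnf* and *Tnfsf8*, and 13.4% of all genes of the table. gdT_TypeIII_CD163l1 listed 2 ligands and 11.4% of all genes. *Bax*, a pro-apoptotic gene, was the only other gene listed for exactly the types of *Lta*, and its shares differed from those of *Lta* by 22.23 percentage points on average.

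*Fasl* encodes Fas ligand, with which cytotoxic lymphocytes kill cells that carry Fas. It was listed for 4 types of cytotoxic or type 1 character. The share was 87.1% in NK against 67.5% in the other cells, and 84.4% in ILC1 against 67.4%. It was 72.6% in gdT_TypeI against 67.6%. In CD8_Effector *Fasl* was listed with a lower share, 55.7% against 68.3%. The 17 types without a listing had a pooled share of 65.8%, below the shares of NK, ILC1 and gdT_TypeI and above that of CD8_Effector. Of 6 other genes listed for exactly these 4 types, the nearest in shares were *Klrc2* and *Klrc1*, which encode NKG2 receptors of NK cells, and *Prf1*, which encodes perforin. Their mean absolute differences from *Fasl* over the inside and outside shares of the 4 types were 2.58, 4.89 and 8.80 percentage points.

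*Klrc2* was above 0 in 87.1% of NK and 81.6% of ILC1, and in 60.1% of CD8_Effector against 66.6% of the other cells. *Prf1* was above 0 in 91.5% of NK and 71.9% of ILC1. In gdT_TypeI *Prf1* had a lower share inside, 53.9% against 62.0%, where *Fasl* had a higher share.

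*Cd40lg* encodes the ligand with which helper T cells activate B cells and dendritic cells. It was listed for CD4, ILC2_2 and ILC3. Of these, ILC3 alone had the higher share inside, 58.5% against 54.5%. In CD4 the share was 45.6% against 54.9%. In ILC2_2 it was 22.7% against 55.1%, the lowest inside share of any ligand in the cell type table and the lowest difference of all 200 genes listed for ILC2_2. ILC2_2 listed 3 ligands (*Cd40lg*, *Tnf*, *Tnfsf11*) and 11.9% of all genes. ILC3 listed 2 ligands (*Cd40lg* and *Tnf*) and 9.11% of all genes.

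*Tnfsf8* encodes CD30 ligand, which binds the receptor encoded by *Tnfrsf8*. It was listed for 5 types. The share was higher inside in ILC1_ILC3, 68.9% against 58.1%, and in gdT_TypeI, 59.3% against 58.0%. It was lower inside in CD8_Naive (50.7% against 58.4%), in Treg (38.9% against 58.6%) and in gdT_Naive (34.1% against 59.8%). *Tnfsf8* thus had the lower share in most of its types although its average was higher there. gdT_TypeI listed 2 ligands (*Fasl* and *Tnfsf8*) and 8.64% of all genes.

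The 6 ligand listings with a higher average and a smaller share of cells were in CD4, CD8_Effector, CD8_Naive, ILC2_2, Treg and gdT_Naive. These are the 6 types of the table in which most listings had a lower share inside, from 51.3% of them in Treg to 76.3% in CD4. The 6 types had 8 ligand listings in all, and *Tnf* and *Tnfsf11* in ILC2_2 were those with a higher share inside. No ligand was listed with a lower share in any other type.

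*Tnfsf11* encodes RANKL, the ligand of the receptor RANK, known for osteoclast formation and lymph node development. In the cell type table it was above 0 in 89.3% of ILC2 against 49.5% of the other cells, the ninth largest difference of the 136 genes listed for ILC2. The share was 80.7% against 66.5% in gdT_TypeII and 79.3% against 66.5% in ILC2_2. By difference *Tnfsf11* ranked 12th of the 28 genes listed for gdT_TypeII and 57th of the 200 for ILC2_2. ILC2 listed no other member of the family, and 8.1% of all genes of the table. The 3 types held 46.6% of the sorted cells, and in the 18 types without a listing the pooled share was 47.6%. All 3 types also listed *Il1rl1*, and gdT_TypeII carried ILC2 markers as given above.

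Of 8 other genes listed for exactly ILC2, ILC2_2 and gdT_TypeII, the nearest to *Tnfsf11* in shares was *Il1rl1*, the IL-33 receptor gene, with a mean absolute difference of 4.25 percentage points over the 3 types. *Lztfl1* and *Mctp1* followed at 4.38 and 5.60. By the largest in place of the mean difference, *Lztfl1* was nearest (9.1 percentage points), *Mctp1* followed (10.7), and *Il1rl1* was not among the nearest 3. *Il1rl1* was above 0 in 90.2% of ILC2, 85.8% of ILC2_2 and 95.3% of gdT_TypeII. ST2, its product, was part of the sort gate.

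In the ILC2 subcluster table *Tnfsf11* was listed for subclusters 0 and 3. It was above 0 in 37.0% of subcluster 0 against 13.9% of the other ILC2s, a share 2.66 times as large, and in 36.3% of subcluster 3 against 17.4%, a share 2.09 times as large. Its difference was the 13th largest of the 300 genes listed for subcluster 0 and the 18th largest of the 237 listed for subcluster 3. Both together held 42.3% of the ILC2s, and in the 8 remaining subclusters the pooled share of cells with *Tnfsf11* was 8.2%. Over all ILC2s the share was 20.2%. Of the 6 ILC2 markers, subcluster 0 listed 2 (*Gata3*, *Il1rl1*) and subcluster 3 listed 3 (*Areg*, *Gata3*, *Il1rl1*). *Gata3*, *Il1rl1* and the regulatory T cell marker *Il2ra* were listed for subclusters 0 and 3 and for no other subcluster. The ILC2 markers *Il13*, *Il5* and *Klrg1*, and the regulatory T cell marker *Ctla4*, were listed for other subclusters only.

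Of 43 other genes listed for exactly subclusters 0 and 3, *Stxbp6*, *Arhgef12* and *Ttc28* were nearest to *Tnfsf11*, with mean absolute differences of 3.32, 4.17 and 4.67 percentage points. By the largest difference *Arhgef12* was nearest (5.5 percentage points). *Stxbp6* was above 0 in 30.3% of subcluster 0 and 31.0% of subcluster 3, against 14.5% and 16.7% of the other ILC2s.

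**Figure D2:**
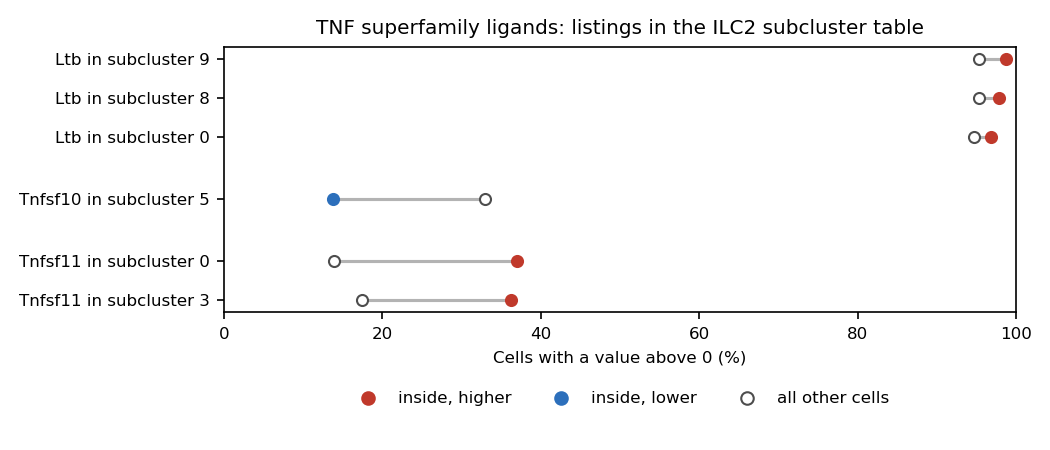
Percentage of ILC2s above 0 (x axis) for the 6 listings of TNF superfamily ligands in the ILC2 subcluster table; filled points give the subcluster (red where higher, blue where lower) and open points all other ILC2s. *Tnfsf11* stands at 37.0% and 36.3% in subclusters 0 and 3, *Ltb* stands above 94% on both sides, and *Tnfsf10* is lower inside subcluster 5.

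The values of *Tnfsf11* were far apart between the tables. It was above 0 in 89.3% of ILC2 in the cell type table, and in 88.9% of ILC2 and ILC2_2 together, but in 20.2% of all ILC2s in the subcluster table. Of the 116 genes listed for ILC2 that were also in the subcluster table, 112 had the higher share in the cell type table, with a median difference of 16.8 percentage points, and *Tnfsf11* had the largest, 69.1. *Il1rl1* and *Gata3* differed by 1.0 and 2.1 percentage points. *Cd3e*, whose product was among the markers the sort left out, was above 0 in 83.5% of all cells of the cell type table. Its share was 5.76% of the ILC2s in the subcluster table. The kind of value from which each table took its shares was not given in the sources used here, and the source of the gap was not tested. Shares are therefore compared only within a table, and a share in either table is not read as a share of cells that express a ligand.

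**Figure D3:**
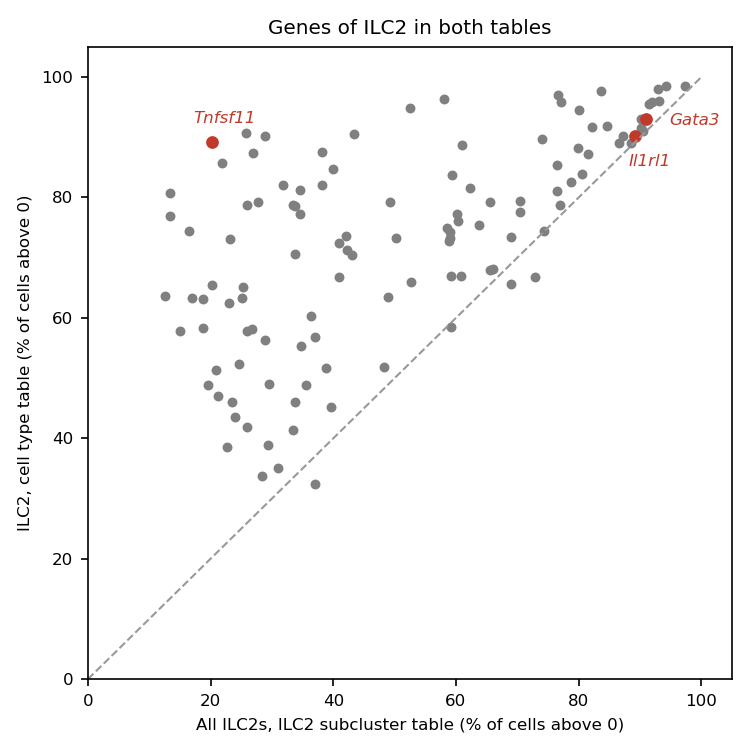
Percentage of cells above 0 for 116 genes in ILC2 in the cell type table (y axis, %) against all ILC2s in the subcluster table (x axis, %); the dashed line marks equal shares. *Tnfsf11* lies farthest from the line, at 89.3% against 20.2%, whereas *Il1rl1* and *Gata3* lie close to it.

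*Ltb* encodes lymphotoxin beta, the membrane anchor of the lymphotoxin heterotrimer. It was absent from the cell type table and was above 0 in 95.3% of all ILC2s in the subcluster table. It was listed for 3 subclusters. The share was 96.9% in subcluster 0 against 94.7%, 97.8% in subcluster 8 against 95.3%, and 98.8% in subcluster 9 against 95.3%. The shares inside and outside differed by at most 3.5 percentage points, and the 7 subclusters without a listing stood at 94.7%. Subclusters 8 and 9 held 0.668% and 0.611% of the ILC2s, the smallest subclusters that listed a ligand. Subcluster 0 listed 2 ligands (*Ltb* and *Tnfsf11*) and 11.4% of all genes of its table.

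*Tnfsf10* encodes TRAIL, a ligand that can trigger death of target cells through death receptors. It was listed for subcluster 5 alone, with 13.8% of cells against 33.0% of the other ILC2s. This was the pattern of most of that subcluster: 97.8% of its 1000 listings had a lower share inside, and the median difference was -21.3 percentage points, close to the -19.2 of *Tnfsf10*. Another 711 genes were listed for subcluster 5 alone, and *Chfr*, *Poldip3* and *Trim12c* had shares within 0.35 percentage points of *Tnfsf10* on average. *Tnfsf10* ranked 389th of the 1000 by difference. Subcluster 5 also listed 2 of 7 T cell markers (*Cd3e*, *Cd3g*) and 2 of 4 gamma delta T cell markers (*Trdc*, *Trdv4*), and their part in the listing was not tested.

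Over the ILC2 subclusters the 3 ligands had 6 listings in 5 of the 10 subclusters. *Ltb* and *Tnfsf11* were listed for at least 2 subclusters, as were 29.2% of all genes of the table. The share was higher inside in 5 of the 6 listings, against 70.5% of all listings, and by at least 10 percentage points in 2, against 56.3% of all. Subclusters 1, 2, 4, 6 and 7 listed no ligand, and listed 13.8%, 4.98%, 30.5%, 7.23% and 10.3% of all genes of the table. *Tnf*, *Lta*, *Fasl*, *Cd40lg* and *Tnfsf8* were listed for no subcluster.

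Of 10 receptors that bind the 9 ligands (the TNF receptors, the lymphotoxin beta receptor, Fas, CD40, CD30, the TRAIL receptor, RANK with its decoy, and HVEM), none was listed for a cell type. The subcluster table listed 1, *Tnfrsf8*, the receptor for CD30 ligand, in 29.6% of subcluster 4 against 3.3% of the other ILC2s. Subcluster 4 listed no ligand of the family, 4 of 4 proliferation markers and 30.5% of all genes of its table. *Tnfrsf8* ranked 587th of its 802 genes by difference, with 26.3 percentage points against a median of 34.1.

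Over the whole TNF receptor superfamily, 5 of 27 genes were in the cell type table with 15 listings. The share was higher inside in 13 of the 15, near the 83.6% of all listings of the table. *Cd27*, a costimulatory receptor, had 6 of the 15 listings, with a lower share inside in Treg (69.0% against 74.9%). *Tnfrsf4*, which encodes OX40, was above 0 in 76.8% of Treg against 47.0%, and in 33.3% of CD4 against 48.1%. Among types that listed a ligand, the widest gap was that of *Tnfrsf13c*, the receptor for BAFF, in MMP_LMPP, with 68.3% against 31.2%. In the ILC2 subclusters 4 of 27 receptor genes were listed. *Tnfrsf18*, which encodes GITR, was listed for subclusters 0 and 3, as *Tnfsf11* was, but with nearly equal shares on both sides (75.2% against 75.9% and 75.8% against 75.7%). *Tnfrsf25*, which encodes DR3, and *Cd27* were listed for subcluster 1, with 71.2% against 50.1% and 44.6% against 28.8%.

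Of 18 genes for receptor adapters and signaling, 2 were listed for a cell type and 7 for a subcluster. *Traf1*, an adapter that NF-κB induces, was above 0 in 92.9% of ILC1_ILC3 against 70.8%, the type that also listed *Tnf*, *Lta* and *Tnfsf8*. In ILC2_2 *Traf1* was listed with 50.7% against 71.3%. In the subclusters it was above 0 in 82.0% of subcluster 1 against 59.9%, in 89.9% of subcluster 8 against 64.2% and in 32.0% of subcluster 5 against 65.6%. *Tnfaip3*, which encodes the NF-κB inhibitor A20, was above 0 in 93.0% of subcluster 3 against 76.7%, in 93.3% of subcluster 8 against 79.0% and in 88.8% of subcluster 1 against 76.7%. It was also listed for 5 cell types, with shares at most 7.5 percentage points apart, and had the lower share inside in CD4 (91.0% against 92.6%) and in gdT_TypeIII_CD163l1 (89.6% against 92.6%), a type that listed *Tnf* and *Lta*. *Ripk1*, *Cflar*, *Cyld* and *Birc2* were listed for subcluster 5 with *Tnfsf10*, each with a lower share inside. Subcluster 5 listed 1000 of the 2629 genes of its table, and 97.8% of these listings had a lower share inside.

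Of 4 genes for the shedding of ligands from the surface, the cell type table listed none. The subcluster table listed *Adam17*, the TNF-converting enzyme, for subcluster 5, with 18.4% against 37.8%. A lower share inside was the pattern of 97.8% of the listings of subcluster 5. Of 9 further ligands of the superfamily, *Tnfsf13*, which encodes APRIL, was listed for NK, with 49.4% against 29.5%, and no other was in either table.

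**Figure D4:**
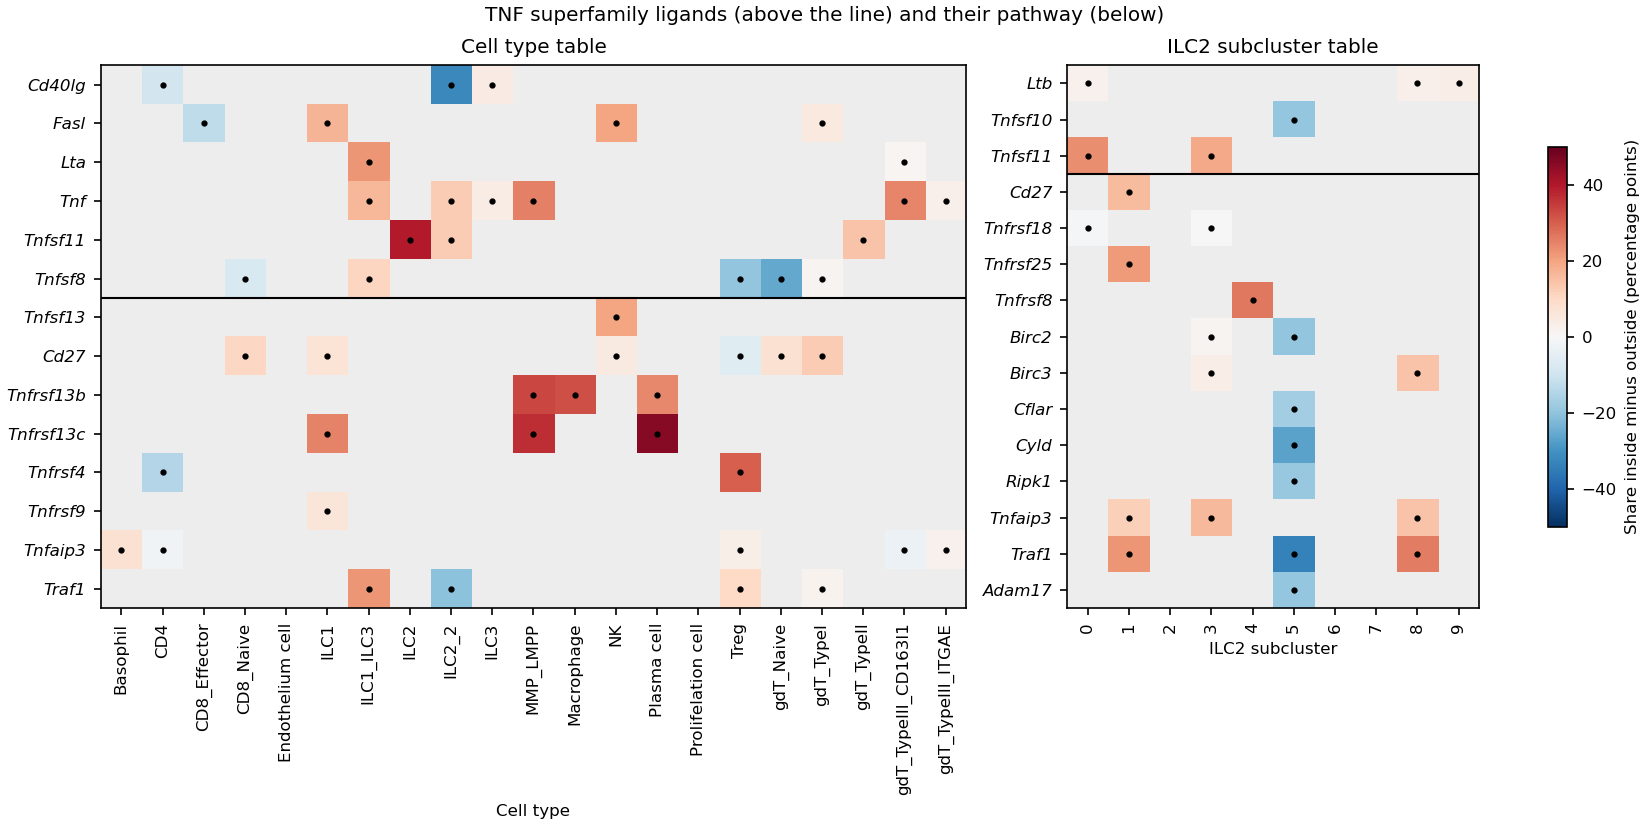
Listings of the ligands (above the black line) and of their pathway genes (below it) by cell type (left) and ILC2 subcluster (right); color gives the share of cells inside minus that outside in percentage points, dots mark listings, and gray without a dot means not listed. *Tnfsf11* is the only one of these ligands listed for ILC2. The listings of subcluster 5 drawn here all lie below 0, as do 97.8% of all its listings.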

How the data were processed

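Libraries were made with droplet-based 3′ single-cell chemistry. Per the submitters' processing notes and the study's methods, the authors mapped reads to mm10 in Cell Ranger, immune cells with few detected genes were left out, counts were scaled per cell and log transformed, and the merged cells were clustered in Seurat. Doublets were removed by flow cytometry; no computational caller could be run on tables without cells. The deposited tables are marker lists over all 4 libraries, and the fraction of cells above 0 inside and outside each cluster, to 3 decimals, was used. The deposited fold changes and p-values are the authors' own comparisons and were not used, apart from the listing itself and a check of the sign of the fold change.

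For each gene, the share outside plus the cluster size times the difference of shares is the share over all cells. Sizes were solved by least squares (NumPy 2.4.6, pandas 2.3.3) over genes listed for at least 2 clusters, 1045 and 768 genes, and summed to 100.1% and 100.2%. A ligand's share over all cells was the mean over its listings, whose estimates differed by at most 0.10 percentage points, and the share in clusters without a listing followed by subtraction. The solver was tested on simulated tables. Genes called nearest had exactly the same listings and the smallest mean absolute difference of shares, and 3 were named. Other genes named came from 4 fixed lists (further ligands, receptors, adapters and signaling, shedding) and from cell type markers. From these lists the rule named the receptors of the ligands and the gene of each list with the widest difference in a cluster with a ligand; the other list genes were named after their values were seen. Cells are not replicates and each group held 1 library, so no test was run. Members and lists were chosen with earlier results of these data known. RefSeq windows matched 8 of 9 ligands. The check of the type named ILC3 against ILC3 markers is not reported here.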

Additional observations from a re-analysis of the deposited data

How the results depend on the processing

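No paired analysis was possible because both tables pool the libraries, of which every group had 1. All 45 shares of ligands recomputed with other sizes (genes listed for at least 3 clusters, sizes held to a sum of 100%, only genes with wide differences) stayed within the rounding step of 0.1 percentage points, with a largest shift of 0.02. The choice of listings moved the counts. With only listings whose share was higher inside, the cell types that listed *Cd40lg* went from 3 to 1 and those of *Tnfsf8* from 5 to 2, the subclusters that listed *Tnfsf10* went from 1 to 0, and the ligands listed for CD4, CD8_Effector, CD8_Naive, Treg, gdT_Naive and subcluster 5 went from 1 to 0 each. With a share at least 10 percentage points higher inside, the clusters went to 1 for *Lta*, 2 for *Fasl*, 0 for *Cd40lg*, 1 for *Tnfsf8*, 0 for *Ltb* and 0 for *Tnfsf10*. The ligands listed then went to 0 for those 6 clusters and for ILC3, gdT_TypeI, gdT_TypeIII_ITGAE and subclusters 8 and 9, and to 1 for gdT_TypeIII_CD163l1 and subcluster 0. These follow from the construction of the stricter rules. *Tnf* kept its 6 cell types where any higher share inside was enough and went to 4 with at least 10 percentage points. *Tnfsf11* kept its 3 cell types and 2 subclusters under both rules. Taking the largest in place of the mean difference kept at least 2 of the genes named as nearest where 3 were named, but *Il1rl1* was no longer among those of *Tnfsf11* in the cell type table. The tables hold neither depth nor numbers of cells, and no counting interval was computed.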

Other observations

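Further listings of receptors of the superfamily fell in several cell types. *Tnfrsf13c* was above 0 in 76.5% of Plasma cell against 31.1% of the other cells, and in 55.0% of ILC1 against 30.1%. *Tnfrsf13b*, which encodes TACI, was above 0 in 62.9% of Plasma cell against 38.9%, and in 70.0% of Macrophage against 37.6%. Macrophage also listed *Mzb1*, a B lineage marker, and 2 of 4 macrophage markers. *Tnfrsf9*, which encodes 4-1BB, was listed for ILC1 alone, with 58.9% against 52.7%. All are shares of the cell type table and are compared within it only.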
